A study of Mus musculus with 4 samples.

Results

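The 51 genes described here are a panel that proliferating cells turn on in turn: 23 S genes, which copy the DNA, and 28 G2/M genes, which separate the copies. They were chosen by name and not by their levels, from the genes commonly used to place single cells in the cell cycle. Earlier results of these data were known when they were chosen. All 51 were listed in both count tables, which share 23058 genes. The cells were bone marrow αLP of mice, sorted as lineage-negative CD127+ FLT3- LPAM-1+ cells, a population that holds the precursors of innate lymphoid cells (ILCs), and were read by TAS-Seq, a 3′ single-cell RNA-seq chemistry run on BD Rhapsody. Wild-type (WT) mice were compared with G3SEKO mice, in which CRISPR-Cas9 removed a pair of tandem super-enhancers downstream of Gata3, the transcription factor gene that ILC2s depend on. The deletion is in the germline, so every cell of the animal carried it.

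Experiment 1, on C57BL/6 mice, gave 681 WT cells and 43 cells of G3SEKO. Experiment 2, for which the labels give no strain, gave 5130 and 1159. Antibody hashtags carried the genotype, several mice were pooled per genotype, and the labels give neither age nor which hashtag belonged to which animal. Each genotype in each experiment was therefore counted as 1 sample. For experiment 2 the labels list both hashtags, A0302 and A0303, under WT and name none for G3SEKO. A0303, with 1450 listed cells against 6080 for A0302, was taken as G3SEKO from the study's cell numbers, a reading on which all G3SEKO values of experiment 2 depend. The experiments differed in depth: the median cell of experiment 1 held 396198 reads in WT and 509911 in G3SEKO, against 29677 and 42814 in experiment 2. Per the study's methods they also differed in the number of mice and in the bones taken. Marrow came from leg bones (femur and tibia) in experiment 1, and also from pelvis, humerus, scapula and forearm in experiment 2.

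A dividing cell licenses its replication origins with the MCM helicase, fires them, and copies its DNA with polymerases that the sliding clamp PCNA holds on the template. E2F transcription factors switch on most of these genes at the start of S phase. The later G2/M genes are held silent in resting cells by the DREAM complex and then switched on with MYBL2 and FOXM1, through promoter elements known as the CHR and the CCAAT box. Early lymphoid precursors are known to divide as they expand, and many ILC2s of adult tissue are resting.

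The promoters were searched for these elements, and 3 are shown because they hold them. Windows from 250 bases before to 50 bases after a RefSeq transcript start (build GRCm38.p6) were on hand for 45 of the 51 genes. The windows of Mcm5, an MCM helicase subunit, of Cdk1, the mitotic kinase, and of Mki67, which coats mitotic chromosomes, are printed for the 250 bases before the start, on the gene's own strand, with every match in capitals.

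Mcm5, chr8:75109259-75109508, plus strand: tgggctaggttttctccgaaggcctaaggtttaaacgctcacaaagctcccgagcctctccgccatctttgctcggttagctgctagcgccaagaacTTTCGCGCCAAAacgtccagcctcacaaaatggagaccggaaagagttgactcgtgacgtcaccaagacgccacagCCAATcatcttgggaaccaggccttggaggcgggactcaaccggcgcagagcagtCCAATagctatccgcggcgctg

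Cdk1, chr10:69352913-69353162, minus strand: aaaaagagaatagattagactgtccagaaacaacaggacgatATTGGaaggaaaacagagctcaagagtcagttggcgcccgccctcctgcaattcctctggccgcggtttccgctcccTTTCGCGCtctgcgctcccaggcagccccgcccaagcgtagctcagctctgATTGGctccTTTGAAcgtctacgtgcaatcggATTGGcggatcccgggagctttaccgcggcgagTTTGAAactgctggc

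Mki67, chr7:135716380-135716629, minus strand: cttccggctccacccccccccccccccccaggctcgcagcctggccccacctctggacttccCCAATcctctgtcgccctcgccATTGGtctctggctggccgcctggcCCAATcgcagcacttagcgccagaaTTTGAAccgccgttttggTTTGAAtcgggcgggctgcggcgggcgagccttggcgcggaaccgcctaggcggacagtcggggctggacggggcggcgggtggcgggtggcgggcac

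The motifs were an E2F type (TTTGGCGC or TTTCGCGC), the CHR (TTTGAA) and the CCAAT box (CCAAT), each read on both strands, so a CCAAT box on the other strand appears as ATTGG. In Mcm5 the match TTTCGCGC began 153 bases before the start and overlapped a TTTGGCGC read on the other strand. Cdk1 held an E2F type match at 131 bases and CHR matches at 71 and 15 bases, and Mki67 held CHR matches at 116 and 98 bases. Counted over genes, some of which have more than 1 window, the E2F type was found in 7 of 20 S genes (35%; Dtl, Mcm3, Mcm5, Mcm6, Mcm7, Pola1 and Uhrf1), in 1 of 25 G2/M genes (4%, Cdk1) and in 0.929% of all 27025 genes of the table. The CHR was found in 17 of 25 G2/M genes (68%), 4 of 20 S genes (20%) and 20.2% of all. The CCAAT box was in 75% of S genes, 76% of G2/M genes and 41.1% of all, and CHR and CCAAT box stood together in 15%, 60% and 7.97%. A match describes letters and is no proof of a bound site.

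**Figure D1:**
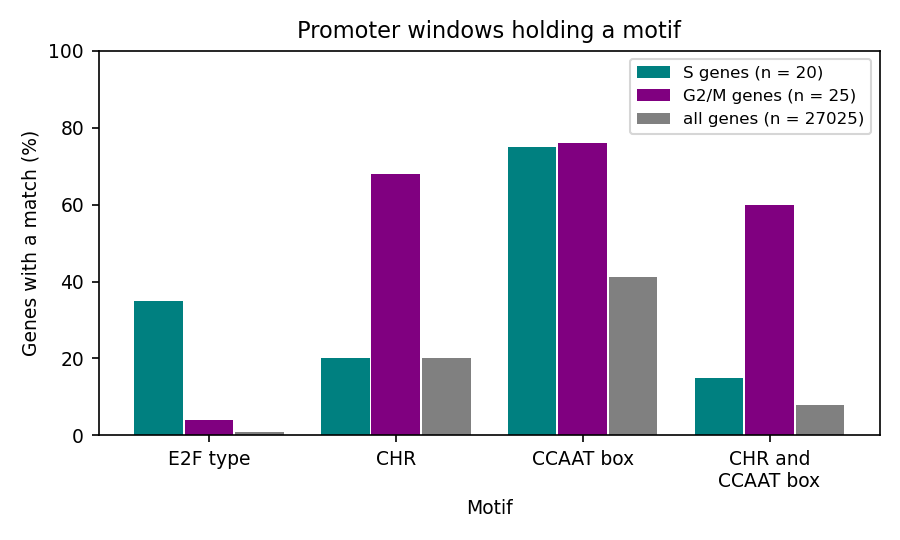
Share of genes (percent, vertical axis) whose promoter window holds each motif, for the 20 S genes, the 25 G2/M genes and the 27025 genes of the table. The E2F type bar is tallest for the S genes at 35%, and the CHR bar is tallest for the G2/M genes at 68%.

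Cells were placed on the ILC2 path by 6 genes that are not among the 51, each called positive at ln(1 + reads per 10000) of at least 1. Zbtb16 (PLZF) marks the common ILC precursor, Bcl11b the commitment to ILC2s, Icos a co-stimulatory receptor of ILC2 precursors and ILC2s, and Il1rl1 the IL-33 receptor ST2 of mature ILC2s; Ccr6 and Eomes mark ILC3-type and NK or ILC1-type cells. The path thus ran from Zbtb16+ Bcl11b- through Zbtb16+ Bcl11b+ and Zbtb16- Icos+ cells, together called the precursor gates by their place on this path and all without the other 3 genes, to ST2+ cells. Another 1104 cells fell in no gate. Id2, the ILC regulator, stood between 1911 and 4413 CPM (reads per 1000000 reads of the gate) in every gate sum of the path. Gata3 stood at 666 to 1387 CPM in the WT gates of the path and, in G3SEKO, at 763 to 946 CPM in the 3 precursor gates of experiment 1 (23 cells) and at 296 to 572 CPM in the 4 gates of experiment 2. The Zbtb16- Icos+ gate of experiment 2 lay below the Il1rl1 limit but not free of that gene: 267 of 564 WT cells held an Il1rl1 read, and in G3SEKO 97 cells did and 215 did not. It also held unlike cells in the genotypes, with Il18r1, the IL-18 receptor subunit that ILC precursors carry, at 281 CPM in the WT sum against 955 CPM in that of G3SEKO, Tcf7, an early lymphoid factor, at 110 and 513 CPM, Pdcd1 (PD-1) at 54.9 and 261 CPM, and Il2ra, the CD25 of ILC2s, at 299 and 48.5 CPM. WT ST2+ cells of experiment 2 stood at 53.6, 42.7, 10.2 and 582 CPM of these 4 genes.

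A cell was called G2/M when the G2/M genes summed to at least 20 reads per 10000 from at least 3 genes, and S when it was not G2/M and the S genes met the same limit, after each cell was thinned once to 6000 reads. The class is a range cut from a sum and not a cell type. In experiment 2, 193 of 6289 cells lay between 10 and 20 on the G2/M sum, 51 between 20 and 40, and 72 at 40 or more. The S sum gave no such gap: 1004 cells lay between 10 and 20, 482 between 20 and 40, and 185 at 40 or more. G2/M calls thus stood further from their limit than S calls, and G2/M shares are given apart from S shares. Intervals are exact 95% binomial intervals, and where no cell was called the share allowed is that of 3 cells; both cover counting error and not the spread between mice.

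In experiment 2 the G2/M share was highest in the Zbtb16- Icos+ gate, the gate set before ST2+ on the path. In WT of experiment 2, 27 of 564 cells of that gate were in G2/M (4.79%, 3.18 to 6.89), against 0 of 216 in both Zbtb16+ gates together, which allows a share of up to 1.39%, and 19 of 3546 ST2+ cells (0.536%, 0.323 to 0.835). G3SEKO cells of the same experiment gave 23 cells in the Zbtb16- Icos+ gate (7.37% of the gate, 4.73 to 10.9), 3 of 253 Zbtb16+ Bcl11b- cells (1.19%, 0.245 to 3.43), 0 of 102 Zbtb16+ Bcl11b+ cells, which allows up to 2.94%, and 1 of 49 ST2+ cells (2.04%, 0.0517 to 10.9). In WT the interval of the Zbtb16- Icos+ gate lay above those of ST2+ cells and of the Zbtb16+ gates pooled, and in G3SEKO above that of each Zbtb16+ gate but not that of the 49 ST2+ cells. Split by Il1rl1 after seeing the data, the WT gate gave 13 G2/M cells of 267 with an Il1rl1 read (4.87%, 2.62 to 8.18) and 14 of 297 without one (4.71%, 2.60 to 7.78), and G3SEKO 9 of 97 (9.28%, 4.33 to 16.9) and 14 of 215 (6.51%, 3.61 to 10.7).

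Experiment 1 did not show that order for G2/M. Its 4 G2/M cells, all WT, were 1 of 55 Zbtb16+ Bcl11b- cells (1.82%, 0.0460 to 9.72), 1 of 80 Zbtb16- Icos+ cells (1.25%, 0.0316 to 6.77) and 2 of 424 ST2+ cells (0.472%, 0.0572 to 1.69), and the 3 intervals overlapped. None of the 33 Zbtb16+ Bcl11b+ cells was in G2/M, which allows up to 9.09%.

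Among the 4 gates of the path, S calls were also most frequent in the Zbtb16- Icos+ gate in WT of both experiments. In experiment 1, 9 of 80 Zbtb16- Icos+ cells were in S (11.2%, 5.28 to 20.3) against 11 of 424 ST2+ cells (2.59%, 1.30 to 4.59). In experiment 2 the shares were 45 of 564 (7.98%, 5.88 to 10.5) and 130 of 3546 (3.67%, 3.07 to 4.34). The intervals of these gates did not overlap in either experiment. The Zbtb16+ Bcl11b- share was 2 of 55 (3.64%, 0.443 to 12.5) and 8 of 147 (5.44%, 2.38 to 10.4), and its interval overlapped those of both other gates. G3SEKO cells of experiment 2 gave 12 of 253 (4.74%), 6 of 102 (5.88%), 32 cells (10.3%) and 2 of 49 (4.08%) along the path, with overlapping intervals between neighbours.

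**Figure D2:**
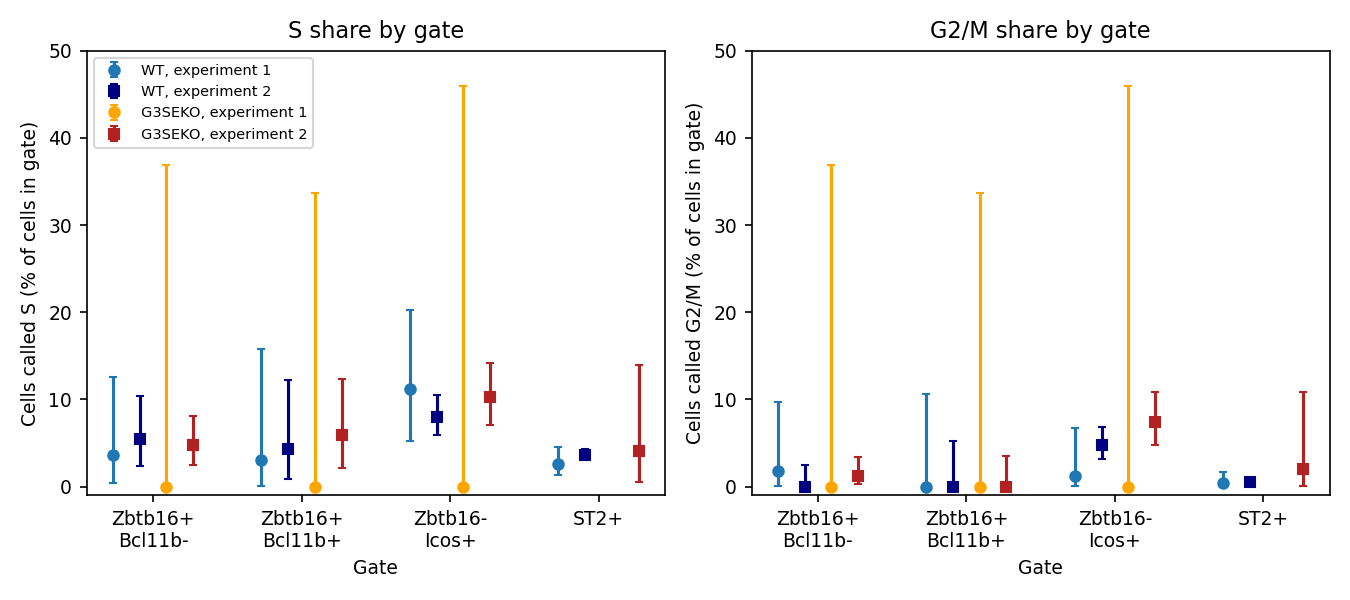
Percent of the cells of each gate called S (left) and G2/M (right), with points for each genotype and experiment and bars for the exact 95% interval. The Zbtb16- Icos+ gate of experiment 2 has the highest G2/M share, at 4.79% in WT and 7.37% in G3SEKO, and the wide bars belong to the 23 G3SEKO precursor cells of experiment 1.

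Of the 53 G2/M cells of WT in experiment 2, 27 (50.9%) lay in the Zbtb16- Icos+ gate, which held 11.0% of the cells, and 19 (35.8%) in the ST2+ gate, which held 69.1%. In G3SEKO 23 of 35 (65.7%) lay in the Zbtb16- Icos+ gate, which held 26.9% of the cells, 1 in the ST2+ gate and 7 in no gate. Outside the path, 3 of 25 Eomes+ cells of WT in experiment 1 were in S (12%, 2.55 to 31.2), and 7 of 42 Eomes+ cells of G3SEKO in experiment 2 were in S (16.7%, 6.97 to 31.4) and none in G2/M, which allows up to 7.14%. Of the Ccr6+ cells of experiment 2, 0 of 38 in WT were in S or G2/M, which allows up to 7.89%, and in G3SEKO 3 of 107 were in S (2.80%; 7 of 107, 6.54%, without thinning) and 1 in G2/M.

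Depth moved with these calls. The 88 G2/M cells of experiment 2 had a median of 83138 reads before thinning, against 41852 for S cells and 31223 for the others, while the WT gates stood at 29517 reads for Zbtb16- Icos+, 31151 for ST2+ and 47644 for the Zbtb16+ gates. The part of depth in the shares was not tested. Without thinning, the Zbtb16- Icos+ gate of experiment 2 held 54 S and 25 G2/M cells in WT (9.57% and 4.43%) and 35 and 23 in G3SEKO (11.2% and 7.37%), and WT ST2+ cells 158 and 24 (4.46% and 0.677%). The S share of both Zbtb16+ gates of WT was then 9 of 216 (4.17%) against 11 of 216 after thinning (5.09%), so its order with ST2+ cells turned. In experiment 1 the S share of WT ST2+ cells was 1.42% without thinning and 2.59% with it.

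The per-cell sums show how the lists share cells. In experiment 2 the G2/M cells had a median G2/M sum of 98.3 reads per 10000 from 13 genes and a median S sum of 43.3, against 3.33 in the cells called neither. S cells had a median S sum of 30.0 and a median G2/M sum of 0. In experiment 1 the 4 G2/M cells had a median S sum of 1.67, against 3.33 in the cells called neither. Since the lists were scored apart, the S sum of a G2/M cell is not fixed by its call. Across all 6289 cells of experiment 2 the sums had a Pearson correlation of 0.231 and a Spearman correlation of 0.0848, and across the 724 of experiment 1 of 0.0906 and 0.0703. These are descriptions over cells that share a library, and most cells sat at or near 0 on both.

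**Figure D3:**
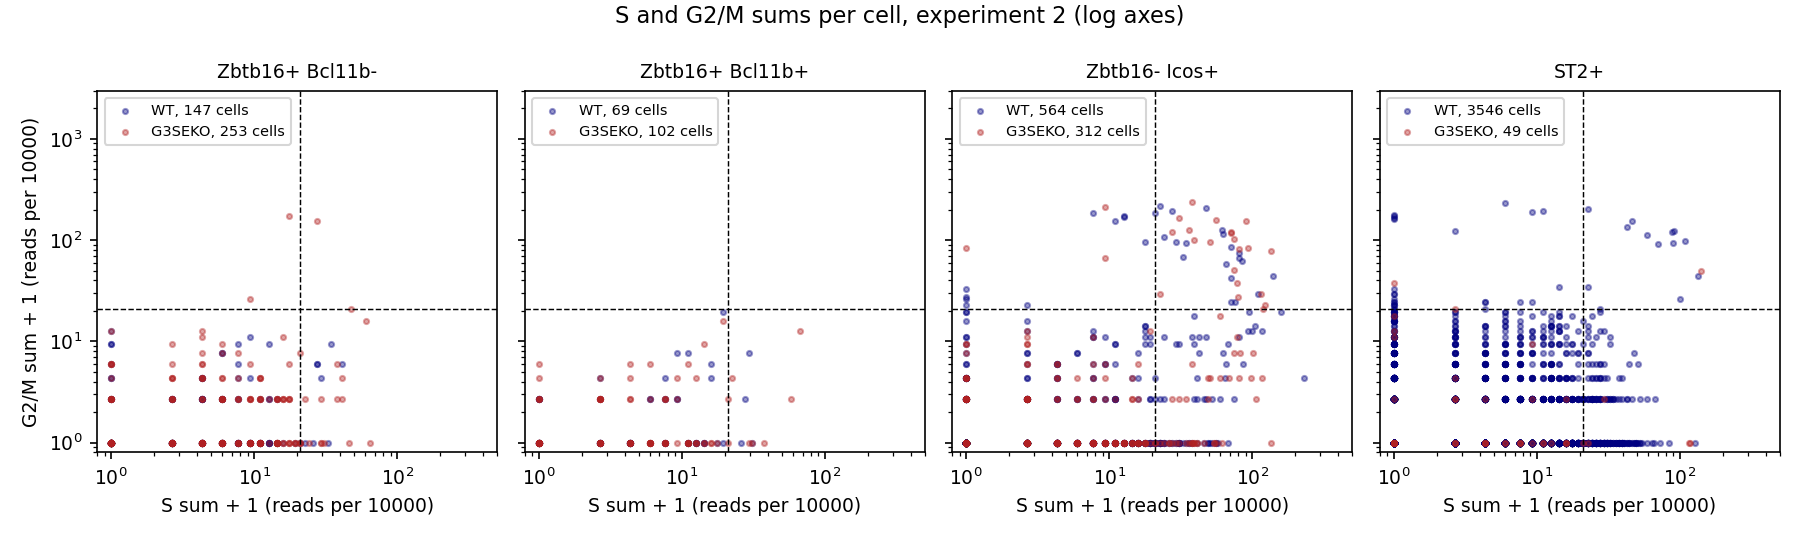
G2/M sum against S sum per cell (reads per 10000 plus 1, both axes log), for the 4 gates of the path in experiment 2, with dashed lines at the limit of 20. The group above the horizontal line is densest in the Zbtb16- Icos+ gate, where most of the 27 WT and 23 G3SEKO cells also have S reads.

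The genes themselves were next compared as sums of reads over the cells of a gate. The Zbtb16- Icos+ gate of WT held 1604 and 2162 CPM of S transcripts in experiments 1 and 2 and 290 and 1609 CPM of G2/M transcripts. ST2+ cells of WT held 465 and 701 CPM of S and 193 and 319 CPM of G2/M transcripts. The Zbtb16+ gates of WT held 583 to 933 CPM of S and 97.9 to 227 CPM of G2/M transcripts. A sum cannot tell more cycling cells from more transcript per cell. The G2/M cells were called by these same reads and hold most of them: in the Zbtb16- Icos+ gate of experiment 2, 89.8% of the G2/M reads of WT came from its 27 G2/M cells and 93.5% of those of G3SEKO from its 23. Single cells weighed heavily in small gates, with 1 cell giving 49.8% of the G2/M reads of WT Zbtb16+ Bcl11b- cells in experiment 1 and 52.0% of those of WT Zbtb16+ Bcl11b+ cells.

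The replication licensing genes stood higher in the Zbtb16- Icos+ gate than in ST2+ cells. Mcm2 to Mcm7, the helicase ring, and Cdc6, which loads it on origins, summed to 675 and 869 CPM in the Zbtb16- Icos+ gate of WT and to 178 and 300 CPM in ST2+ cells. Mcm5 stood at 104 and 133 CPM in the Zbtb16- Icos+ gate against 11.4 and 37.6 CPM in ST2+ cells. Cdc6 stood at 36.3 and 32.5 CPM against 0.869 and 2.67 CPM. All 7 licensing genes were higher in the Zbtb16- Icos+ gate in both experiments. The firing factors Cdc45 and Gins2, which complete the active helicase, summed to 35.7 and 60.5 CPM against 2.19 and 7.14 CPM. Cdc45 alone was at 11.0 and 21.8 CPM against 0.780 and 3.01 CPM.

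DNA synthesis and nucleotide supply showed the same split. Pcna was at 268 and 361 CPM in the Zbtb16- Icos+ gate and at 76.7 and 129 CPM in ST2+ cells. Prim1, the primase that starts each new strand, was at 67.6 and 76.8 CPM against 12.2 and 18.6 CPM. Pola1, the polymerase subunit that extends those primers, was at 76.0 and 57.8 CPM against 15.5 and 19.1 CPM. In each of these genes the lower of the 2 Zbtb16- Icos+ values exceeded the higher of the 2 ST2+ values. Rrm2, the ribonucleotide reductase subunit made in S phase, was at 23.1 and 93.0 CPM against 3.26 and 13.0 CPM, and in the Zbtb16+ gates of WT between 0.134 and 0.344 CPM. Tyms, which makes thymidylate, was at 57.5 and 77.3 CPM against 16.7 and 20.3 CPM. Among the chromatin genes Uhrf1, which passes DNA methylation to the new strand, was at 55.5 and 104 CPM against 1.40 and 5.35 CPM. Slbp, which binds histone mRNA, was at 146 and 152 CPM against 78.1 and 71.2 CPM. Chaf1b, a subunit of the histone chaperone CAF-1, was the exception, at 26.2 and 52.6 CPM against 34.8 and 39.0 CPM, and so went opposite ways in the experiments. Ccne2, the cyclin E that opens S phase, was at 11.2 and 11.3 CPM against 0.628 and 2.59 CPM.

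The G2/M genes were more uneven between experiments. Top2a, the topoisomerase that untangles sister DNA, and Mki67 summed to 90.1 and 541 CPM in the Zbtb16- Icos+ gate of WT and to 30.4 and 79.6 CPM in ST2+ cells. Top2a stood at 52.8 and 286 CPM against 17.4 and 41.4 CPM, and Mki67 at 37.4 and 255 CPM against 13.0 and 38.2 CPM. In experiment 1 both rest on a gate with 1 G2/M cell. Cdk1 stood at 16.9 and 56.2 CPM against 1.08 and 8.46 CPM. Ccnb1, its mitotic cyclin, went opposite ways: 0.550 CPM against 4.0 CPM in experiment 1 and 25.6 CPM against 6.27 CPM in experiment 2. Birc5 and Aurkb, which form the chromosomal passenger complex, were at 14.0 and 55.6 CPM against 6.48 and 14.5 CPM and at 3.98 and 24.9 CPM against 0.0995 and 3.42 CPM. The other mitotic kinase and partner genes, Aurka, Plk1 and Tpx2, were lower in the gate in experiment 1, with log2 differences of -1.81, -2.91 and -1.22, and higher in experiment 2, with 2.44, 2.01 and 1.99.

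The genes of mitotic exit and cytokinesis, Cdc20, Ube2c, Anln and Ect2, summed to 5.43 CPM in the Zbtb16- Icos+ gate and 29.4 CPM in ST2+ cells in experiment 1, and to 161 and 36.5 CPM in experiment 2. Cdc20, the activator of the anaphase-promoting complex, was at 0.0220 CPM against 10.8 CPM in experiment 1 and at 24.9 CPM against 6.37 CPM in experiment 2. None of these 4 genes was higher in the gate in both experiments, whereas 4 of 5 cyclin and Cdk1 genes, 4 of 5 spindle genes, 4 of 7 kinetochore and checkpoint genes and 2 of 5 mitotic kinase and partner genes were. Kif23, a kinesin of the cell midbody, was at 37.2 and 69.4 CPM in the Zbtb16- Icos+ gate and 38.2 and 43.8 CPM in ST2+ cells. In the Zbtb16+ gates of WT it lay between 0.873 and 8.83 CPM.

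**Figure D4:**
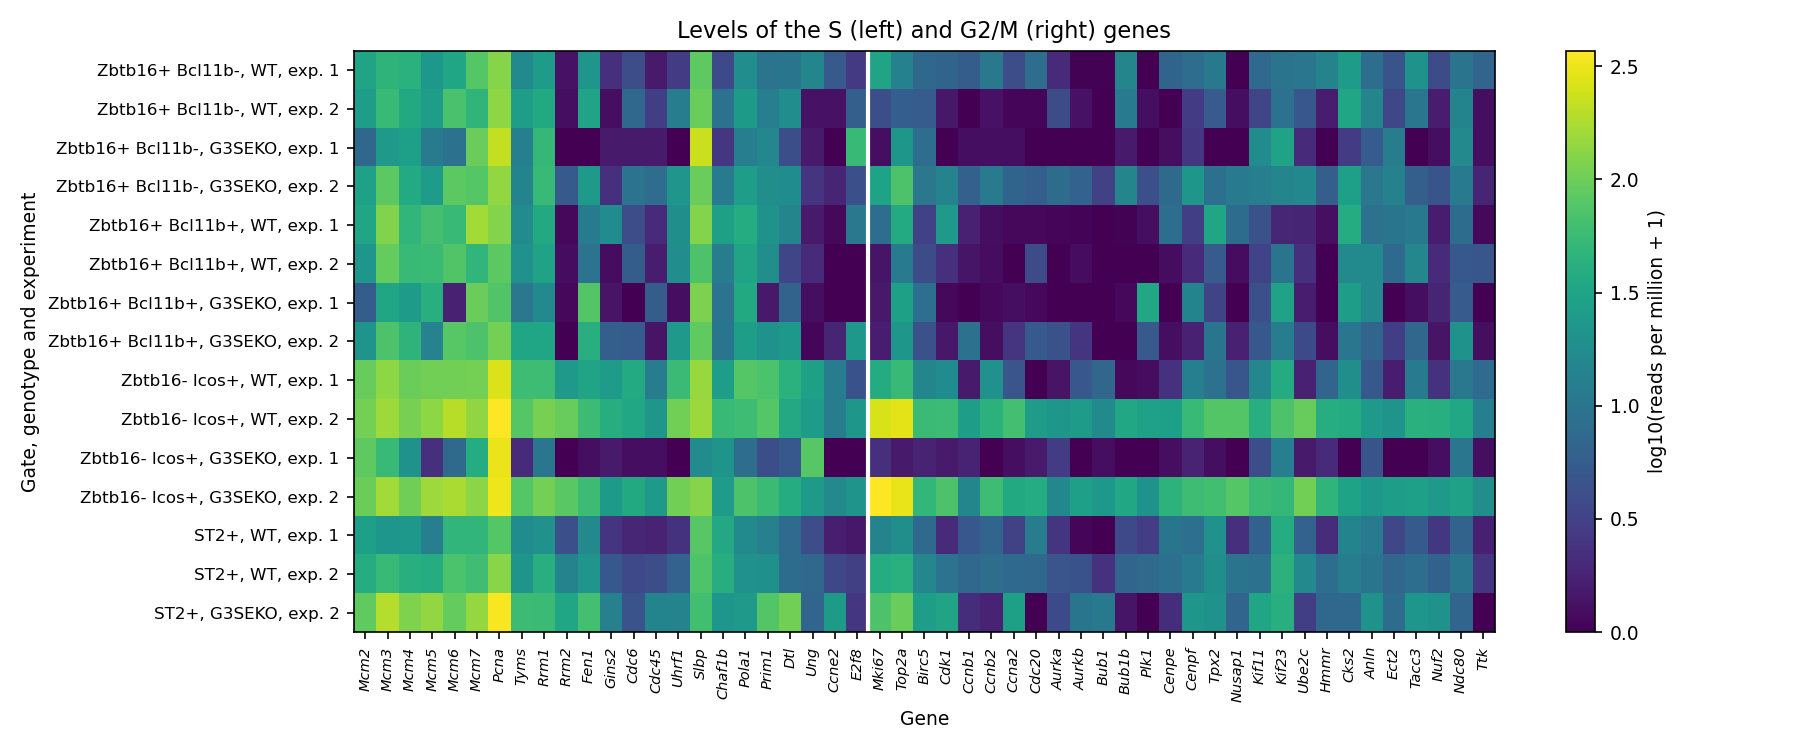
Level of each of the 51 genes (columns; S genes left of the white line) in each gate, genotype and experiment (rows), as log10(CPM + 1). The Zbtb16- Icos+ rows of experiment 2 are bright on both sides of the line, those of WT in experiment 1 mainly on the S side, and those of G3SEKO in experiment 1, from 6 cells, are dark in most columns.

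By the quasi-likelihood test of edgeR, with p-values adjusted after Benjamini and Hochberg, no gene of the panel passed when the Zbtb16- Icos+ gate was compared with ST2+ cells in WT, with experiment as a block. This count of 0 of 51 stands beside 0.00975% of all 20516 genes tested. Of the 51, 49 had a positive log2 difference, with a median of 1.95 against -0.05 over all genes, and 14 had an unadjusted p under 0.05 (all genes: 3.22%), of which 11 were S genes. The median was 1.07 over the 26 genes tested with thinned cells and 0.27 over 49 genes without the cells in S or G2/M. Those cells were picked by their reads of these same genes, so leaving them out lowers the levels by construction. When only the sums compared entered the fit, 44 of 51 were positive and 35 had an unadjusted p under 0.05 (all genes: 9.35%), with no gene of the table called. DESeq2 called 6 (all genes: 0.892%), all S genes and all higher: Cdc45, Cdc6, Mcm4, Pola1, Prim1 and Uhrf1, named here after their values were seen. By edgeR Prim1 differed by 2.24 on the log2 scale (SE 0.53, adjusted p = 0.80) and Mcm4, a helicase subunit, by 1.72 (SE 0.41, adjusted p = 0.84). Of the G2/M genes, Aurkb had the smallest p, with a difference of 3.85 (SE 1.19, adjusted p = 1.0), and Mki67 differed by 2.64.

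The lists parted when each experiment was read alone. Of the 23 S genes 22 were higher in the Zbtb16- Icos+ gate than in ST2+ cells in both experiments, with medians of 2.46 and 1.76. Of the 28 G2/M genes 16 were higher in both, with medians of 0.68 and 2.35: all 28 were higher in experiment 2 and 16 in experiment 1.

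Against both Zbtb16+ gates of WT, the Zbtb16- Icos+ gate was higher for all 51 genes, with a median of 2.58 against 0.11 over all genes. The median was 1.15 over the 26 genes tested with cells thinned to 6000 reads, 1.36 without the Id2 limit, where 18 in place of 32 genes had an unadjusted p under 0.05, and 1.70 at a gate limit of 0.5. No gene of the panel was called by edgeR, beside 0.0146% of the 20516 genes, while 32 of the 51 (17 S and 15 G2/M) had an unadjusted p under 0.05 (all genes: 9.24%) and DESeq2 called 20 (all genes: 4.39%), all higher. Prim1 differed by 2.44 (SE 0.42, adjusted p = 0.11) and Kif23 by 3.21 (SE 0.67, adjusted p = 0.16), both with the same sign in each experiment. Rrm2 differed by 7.37 (SE 1.23, adjusted p = 0.10) and Aurkb by 6.50 (SE 1.02, adjusted p = 0.10), but the Zbtb16+ gates held few reads of either. Rrm2 had 14 and 2 reads in Zbtb16+ Bcl11b- cells of experiments 1 and 2 and 4 and 1 in Zbtb16+ Bcl11b+ cells. Aurkb had 1 and 3, and 2 and 1. The fitted sizes for such genes depend on the prior count. In this comparison 21 of 23 S genes and 18 of 28 G2/M genes were higher in both experiments, and the medians by experiment were 1.60 and 2.25 for S and 0.90 and 5.54 for G2/M.

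**Figure D5:**
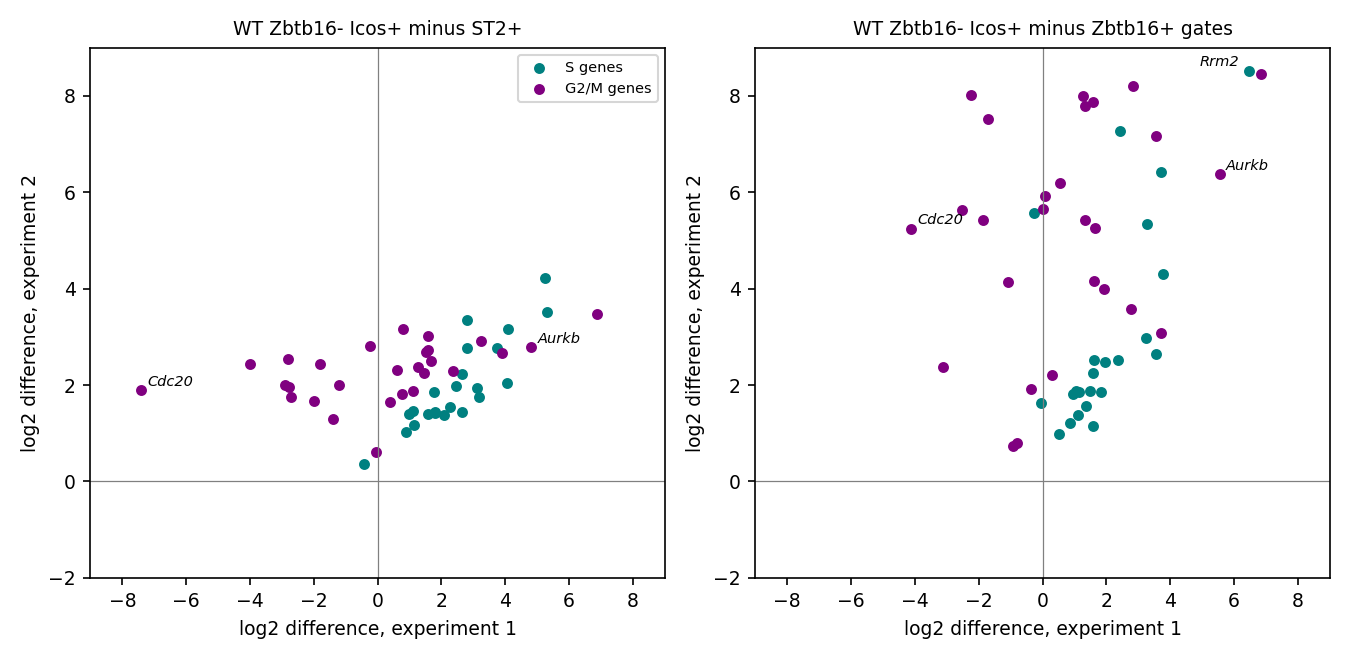
Log2 difference of each gene in experiment 1 (horizontal) and experiment 2 (vertical), WT, for the Zbtb16- Icos+ gate minus ST2+ cells (left) and minus both Zbtb16+ gates (right). All points lie above 0 on the vertical axis, and the points left of 0, Cdc20 farthest, are mostly G2/M genes.

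For the Zbtb16+ gates against ST2+ cells the direction of the median depended on the processing. In Zbtb16+ Bcl11b- cells 0 of 51 genes were called by edgeR, beside 0.692% of all genes, 5 had an unadjusted p under 0.05 (all genes: 9.93%), and 17 had a positive difference, with a median of -0.41 against -0.11 over all genes. In Zbtb16+ Bcl11b+ cells 0 of 51 were called, beside 0.37%, 7 had an unadjusted p under 0.05 (all genes: 10.3%), and 20 were positive, with a median of -0.38 against -0.16. The median of Zbtb16+ Bcl11b- cells was 0.04 at a gate limit of 1.5 (28 of 51 positive) and 0.04 over the 26 genes tested with thinned cells. That of Zbtb16+ Bcl11b+ cells was 0.86 without the Id2 limit (39 of 51 positive), 0.15 at a gate limit of 0.5 (29 of 51) and -1.53 at 1.5. DESeq2 called 2 genes lower in the former, Nusap1 and Rrm2, where it called 5.84% of all genes, and 4 lower in the latter, Bub1b, Ccnb2, Kif23 and Rrm2, where it called 5.77%, again named after their values were seen. Nusap1 bundles spindle fibres, Bub1b is a spindle checkpoint kinase and Ccnb2 a mitotic cyclin. By edgeR Rrm2 had a log2 difference of -4.03 (SE 1.44, adjusted p = 0.38) and -5.05 (SE 1.55, adjusted p = 0.32), and Kif23 of -2.27 (SE 0.83, adjusted p = 0.39) and -3.65 (SE 0.91, adjusted p = 0.21). With thinned cells edgeR called Uhrf1 higher in Zbtb16+ Bcl11b+ than in ST2+ cells, as given in the last section. The lists differed here as well: the median in Zbtb16+ Bcl11b+ cells was 0.16 for S genes and -2.16 for G2/M genes. All 5 mitotic kinase and partner genes (Aurka, Aurkb, Birc5, Plk1 and Tpx2) were lower in Zbtb16+ Bcl11b- than in ST2+ cells in both experiments, a role picked after its values were seen, and 1 of them had an unadjusted p under 0.05. Of all 28 G2/M genes 11 were lower in both experiments and 4 higher in both. These medians moved with the experiment, from 0.33 in experiment 1 to -1.79 in experiment 2 for Zbtb16+ Bcl11b- cells and from 0.00 to -2.15 for Zbtb16+ Bcl11b+ cells.

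The genotypes were compared first by the share of cells in S or G2/M, most of them S calls. In the 3 precursor gates together, 14 of 168 WT cells of experiment 1 (8.33%, 4.63 to 13.6) and 83 of 780 of experiment 2 (10.6%, 8.56 to 13.0) were in S or G2/M, 9.49% ± 1.63 (SD, n = 2). In G3SEKO 0 of 23 cells of experiment 1, which allows up to 13.0%, and 76 of 667 of experiment 2 (11.4%, 9.08 to 14.1) were, 5.70% ± 8.06 (SD, n = 2). The order of these means turned at a phase limit of 10 reads per 10000, with 16.9% in WT and 22.6% in G3SEKO. With 2 samples against 2, an exact two-sided permutation test of the shares cannot give a p below 0.333. Of these cells 2 and 27 were in G2/M in WT (1.19% and 3.46%), and 0 and 26 in G3SEKO (3.90% in experiment 2, 2.56 to 5.66). In experiment 2, which holds nearly all G3SEKO cells, the intervals overlapped in each gate of the path. The widest gap was in the Zbtb16- Icos+ gate, with 72 of 564 WT cells (12.8%, 10.1 to 15.8) and 55 G3SEKO cells (17.6% of the gate, 13.6 to 22.3). WT of experiment 1 gave 10 of 80 there (12.5%, 6.16 to 21.8). Before thinning, the median cell of this gate in experiment 2 held 29517 reads in WT and 46417.5 in G3SEKO. The part of depth in the gap was not tested.

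Over the whole path the G3SEKO share of experiment 2 was 79 of 716 cells (11.0%) against 232 of 4326 (5.36%) in WT, but ST2+ cells were 49 of those 716 and 3546 of those 4326. At the G3SEKO mix of gates the WT shares gave 8.39% against 11.0% in G3SEKO, and at the WT mix of gates the G3SEKO shares gave 7.61% against 5.36% in WT. For G2/M alone the values were 2.12% in WT against 3.77% in G3SEKO at the G3SEKO mix, and 1.06% against 2.67% at the WT mix. The G3SEKO value was thus the higher at either mix. At the WT mix it rests mostly on the 49 ST2+ cells, of which 1 was in G2/M and 3 in S or G2/M. These values have no interval, and each genotype was 1 pool. Among the 3 WT hashtags of experiment 1 the share in S or G2/M along the path ran from 4 of 171 cells (2.34%) to 13 of 222 (5.86%).

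By gene, no difference between G3SEKO and WT passed the test in the precursor gates. The count by edgeR was 0 of 51, beside 0% of all 19921 genes tested, 3 had an unadjusted p under 0.05 (all genes: 6.21%), and DESeq2 called none (all genes: 1.21%). The median log2 difference was -0.63, against -0.16 over all genes, and it was -2.02 in experiment 1, where G3SEKO had 23 precursor cells, and 0.42 in experiment 2. Plk1, a kinase of mitotic entry, differed by 3.52 (SE 1.47, adjusted p = 0.78) and Tacc3, a spindle protein, by -3.07 (SE 1.28, adjusted p = 0.78). In experiment 1 all 271 Plk1 reads of the G3SEKO precursor gates lay in the 9 Zbtb16+ Bcl11b+ cells. The S genes with the smallest p were Mcm3, at -0.65 (SE 0.34, adjusted p = 0.78), and Mcm6, at -1.51 (SE 0.84, adjusted p = 0.79), both helicase subunits. In the Zbtb16- Icos+ gate, which held unlike cells in the genotypes as given above, 44 of 51 genes had a negative difference, with a median of -0.83 against -0.28 over all genes; none had an unadjusted p under 0.05, and the median was -3.68 in experiment 1, on 6 G3SEKO cells, and -0.08 in experiment 2. Its direction turned to 0.10 without the G3SEKO cells of experiment 1 (31 of 51 positive) and to 0.03 with thinned cells (19 of 37 tested). In experiment 2, 255 CPM of Mki67 stood in WT beside 368 in G3SEKO, Top2a at 286 and 303.4 CPM, Cdk1 at 56.2 and 70.2 CPM, Pcna at 361 and 316 CPM, Mcm5 at 133 and 153 CPM and Rrm2 at 93.0 and 81.1 CPM. The 6 G3SEKO cells of that gate in experiment 1 held 308.3 CPM of Pcna, 1.30 CPM of Mcm5 and no read of Rrm2.

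The step into the Zbtb16- Icos+ gate was also read without the enhancers. In G3SEKO, 46 of 51 genes were higher in that gate than in the Zbtb16+ gates, with a median of 1.73 against -0.04 over all genes. No gene of the panel was called by edgeR, beside 0.01% of the 19921 genes, 9 had an unadjusted p under 0.05 (all genes: 7.38%), and DESeq2 called 3 higher (all genes: 1.52%): Mcm2, Rrm2 and Ung, the uracil-DNA glycosylase, named after their values were seen. By edgeR Ung differed by 6.74 (SE 1.33, adjusted p = 0.58), Mcm2 by 2.80 (SE 0.65, adjusted p = 0.66) and Mki67 by 5.51 (SE 1.96, adjusted p = 0.67). Bub1, a checkpoint kinase, had 430 reads in the Zbtb16- Icos+ gate and 35 and 0 in the Zbtb16+ gates in experiment 2. The median was -0.38 in experiment 1, on 6 against 17 cells, and 2.48 in experiment 2. Over both experiments it was 0.10 without the Id2 limit on cells. It was -0.47 without the cells in S or G2/M, which were picked by reads of these same genes.

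ST2+ cells of G3SEKO were rare, with 49 in experiment 2 and 1 in experiment 1, and the gene test used the 49 as 1 sum, assumed to vary like the other groups, from which the SE and p come. In S or G2/M were 3 of 49 (6.12%, 1.28 to 16.9), against 13 of 424 (3.07%) and 149 of 3546 (4.20%) in WT, 3.63% ± 0.803 (SD, n = 2). S transcripts stood at 1676 CPM against 465 and 701 CPM in WT, and 3 cells gave 71.7% of these S reads. Pcna was at 344 CPM against 76.7 and 129 CPM, Mcm3 at 192 CPM against 21.2 and 54.4 CPM, and Dtl, which marks proteins for destruction during S phase, at 105 CPM against 6.83 and 7.02 CPM. No gene of the panel was called by edgeR, beside 0.0552% of all genes, 3 (Pcna, Mcm3 and Dtl) had an unadjusted p under 0.05 (all genes: 5.3%), and DESeq2 called none (all genes: 1.65%). The S genes had a median of 1.06 and the G2/M genes of -0.35 (12 of 28 positive), against -0.63 over all genes. The median of both lists turned from 0.40 to -1.32 (49 genes tested) without the cells in S or G2/M, which were picked by reads of these same genes. Pcna differed by 1.62 on the log2 scale (SE 0.47, adjusted p = 0.78) and Mcm3 by 1.97 (SE 0.69, adjusted p = 0.88). Zbtb16, the precursor marker, was at 305 CPM in these G3SEKO cells and at 45.5 and 30.6 CPM in WT ST2+ cells. In experiment 2 Il18r1 was at 876 against 53.6 CPM in WT, Tcf7 at 795 against 42.7 CPM, Pdcd1 at 167 against 10.2 CPM, Il2ra at 147 against 582 CPM and Il1rl1 itself at 574 against 1363 CPM. The part of these differences in the S levels was not tested.

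The genotype difference in ST2+ cells was also tested against that in the precursor gates, with the same single G3SEKO sum of ST2+ cells and the spread of the other groups. No gene of the panel was called by edgeR, beside 0.0251% of all genes, 4 S genes had an unadjusted p under 0.05 (all genes: 4.09%), and DESeq2 called none (all genes: 0.853%). Mcm3 had the smallest p, with a difference of differences of 2.62 (SE 0.76, adjusted p = 1.0), and Pcna gave 1.51 (SE 0.53, adjusted p = 1.0). The S genes had a median of 1.59 and the G2/M genes of 0.16, against -0.46 over all genes. Over both lists the median was 0.96, and it turned to -0.08 without the Id2 limit. It turned to -1.27 (49 genes tested) without the cells in S or G2/M, which were 3 of the 49 G3SEKO ST2+ cells. These cells were picked by reads of the same genes, so leaving them out lowers the levels by construction.

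Another 55 regulators of the cycle, such as D cyclins, their kinases, inhibitors and E2Fs, were read as the wider pathway, and 51 of them could be tested. With all groups in the fit and the limits used throughout, edgeR called none in the WT comparisons of gates or in those between genotypes. For the Zbtb16- Icos+ gate, 5 had an unadjusted p under 0.05 against ST2+ cells (all genes: 3.22%) and 10 against the Zbtb16+ gates (9.24%), and DESeq2 called 2 (Cks1b and Tfdp1; all genes: 0.892%) and 7 (4.39%). For Zbtb16+ Bcl11b- and Zbtb16+ Bcl11b+ cells against ST2+ cells the unadjusted counts were 9 (all genes: 9.93%) and 10 (10.3%), and DESeq2 called 9 (5.84%) and 8 (5.77%). Between genotypes 4 had an unadjusted p under 0.05 in the precursor gates (all genes: 6.21%) and 3 in ST2+ cells (5.3%), where DESeq2 called 1 (Pkmyt1; all genes: 1.65%), and DESeq2 called 0 in the precursor gates (1.21%). Cks1b, a small partner of cyclin-dependent kinases, differed by 2.90 between the Zbtb16- Icos+ gate and ST2+ cells (SE 0.55, adjusted p = 0.52). E2f2, an activator of S genes, differed by 8.57 between that gate and the Zbtb16+ gates (SE 1.03, adjusted p = 0.078). Ccnd2, the D cyclin, and Cdk6, its kinase, went opposite ways before ST2: Ccnd2 was lower in Zbtb16+ Bcl11b- and Zbtb16+ Bcl11b+ than in ST2+ cells, by -1.92 (SE 0.55, adjusted p = 0.26) and -2.0 (SE 0.56, adjusted p = 0.26), and Cdk6 higher, by 1.30 (SE 0.26, adjusted p = 0.10) and 1.61 (SE 0.27, adjusted p = 0.064). Alternatives changed these calls: edgeR called both genes for each of these gates with cells thinned to 6000 reads (all genes: 4.23% and 2.87%) and with only the sums compared in the fit (3.04% and 2.08%), there beside Btg1 for both gates and Cdkn1a and Rb1 for Zbtb16+ Bcl11b- cells. With thinned cells it also called both for the Zbtb16- Icos+ gate against the Zbtb16+ gates (2.25%). Cdk6 was called for both Zbtb16+ gates without the Id2 limit (all genes: 0.637% and 0.365%), and for Zbtb16+ Bcl11b+ cells at a gate limit of 0.5 (0.513%) and with DESeq2 size factors in edgeR (0.405%).

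Inside the Zbtb16- Icos+ gate of experiment 2, regulators that the phase call did not use differed between the G2/M cells and the cells called neither, and these are descriptions over cells of 1 pool each. Foxm1 was at 59.6 CPM in the 27 G2/M cells of WT against 0.391 CPM in 492 others, and at 198 against 0.215 CPM in G3SEKO (23 and 257 cells). Mybl2 was at 87.7 against 3.57 CPM and at 60.9 against 8.26 CPM, and Cks1b at 423 against 19.6 CPM and 483 against 30.7 CPM. Some genes stood lower in the G2/M cells of both genotypes. Btg1, an anti-proliferative factor, was at 154 against 553 CPM in WT and 107 against 488 CPM in G3SEKO, and Ccnd2 at 268 against 672 CPM and 144 against 351 CPM. Cdkn1b, the inhibitor p27, was at 64.0 against 125 CPM in WT and at 160 against 130 CPM in G3SEKO, so its order differed. Gata3 was at 909 against 1031 CPM in WT and 355 against 508 CPM in G3SEKO. Il2ra was at 36.2 against 405 CPM in WT and 25.0 against 57.7 CPM in G3SEKO, so the G2/M cells of WT differed from the rest of their gate in this marker. Icos, which defines the gate, was at 1814 against 1359 CPM and 1055 against 1755 CPM.

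Markers of other lineages were read in the same cells. In experiment 2 the 4 T lineage markers summed to 3.63 CPM in the 88 G2/M cells and 18.7 CPM in the 5918 cells called neither, with none of the 4 at 0. Of 7 B lineage markers the 4 listed in that table summed to 55.1 against 44.9 CPM, of which Cd79b gave 46.9 CPM, and 1 was at 0 in the G2/M cells. Erythroid markers summed to 8.28 against 39.4 CPM with 4 of 7 at 0. Myeloid markers summed to 11.1 against 1.84 CPM with 3 of 7 at 0, and Prtn3 gave 9.79 of the 11.1 CPM. Plasmacytoid dendritic markers summed to 187 against 170 CPM, and stem and multipotent progenitor markers to 275 against 1078 CPM, most of it Ly6a. In experiment 1, with 4 G2/M cells, the sums were 0.713 against 52.0 CPM (T), 153 against 39.1 CPM (B) and 298 against 52.4 CPM (erythroid, mostly Car2). They were 15.7 against 886 CPM (myeloid), 96.0 against 176 CPM (plasmacytoid dendritic) and 292 against 665 CPM (stem and multipotent progenitor). In 26 of 724 cells of experiment 1 and 164 of 6289 of experiment 2, at least 2 markers of the T, the B, the erythroid or the myeloid list were at ln(1 + reads per 10000) of at least 1. Without those cells, an alternative added after seeing the data, the median difference of the 51 genes was 1.91 between the Zbtb16- Icos+ gate and ST2+ cells and 2.61 against the Zbtb16+ gates.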

How the data were processed

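For each of the 2 experiments the authors deposited a table of raw read counts, genes by cells, and the hashtag counts of each cell barcode. Per the study's methods reads were trimmed with Cutadapt and aligned with Bowtie2 to the Ensembl release of GRCm38, and the authors analysed the counts in Seurat 4. Reads of 1 molecule were not collapsed, so reads are not independent molecules. The 3′ chemistry counts each transcript near its end, and levels were compared between cells and not between genes.

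The members, the roles and the wider lists were chosen with earlier results of these data known. Cells met the study's limits on reads per cell (lowest kept cell: 86505 reads in experiment 1, 6753 in experiment 2), held at most 10% mitochondrial reads and had Id2 at ln(1 + reads per 10000) of at least 1. Doublets were left out by hashtag alone, and 102 columns of cells called doublet or without a hashtag were not used. Among listed cells 11 barcodes occur in both experiments, 5 of them in kept cells. A sum over a gate needed at least 5 cells.

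Sums were tested with edgeR 4.0.16 (quasi-likelihood, TMM; R 4.3.3) on 20516 genes for gates in WT and 19921 for genotypes, with Benjamini-Hochberg adjustment at 0.05 and DESeq2 1.42.0 as alternative. P-values measure how the sums of a group varied between the 2 experiments, once a shift common to the whole experiment was taken out. Sums of 1 pool share their mice and library but entered the fit as independent. Experiment was a block, since each experiment holds both genotypes and the gates of the path, other than ST2+ cells of G3SEKO in experiment 1 (1 cell). The scripts were tested on simulated data. Genes were named by rule: 10 preset genes by gate, called genes, or the 2 of each list with the smallest p where none was called. Other named genes illustrate a role. Gene positions in the same build come from GENCODE and promoters from RefSeq. Alternatives were the phase limit, thinning, gate limits, filters, normalization, leaving out each experiment, and the cycling or lineage-marked cells.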

Additional observations from a re-analysis of the deposited data

How the results depend on the processing

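The share of cells in S or G2/M depended on the limit of the call, while the precursor gates of WT stayed above the ST2+ gate at each limit tried. At a limit of 10 in place of 20 reads per 10000, the mean over experiments was 16.9% in WT precursor gates, 9.29% in WT ST2+ cells and 22.6% in G3SEKO precursor gates. At a limit of 40, it was 5.16% in WT precursor gates, 0.654% in WT ST2+ cells and 4.05% in G3SEKO precursor gates. Phase scores of scanpy, which call a cell by the sign of a score, gave 51.4% and 47.1% for these WT gates and 55.4% and 51.0% for the precursor and ST2+ gates of G3SEKO. Without 1 experiment or the other the shares ran from 8.33% to 10.6% (WT precursor gates), 3.07% to 4.20% (WT ST2+), and 0% to 11.4% (G3SEKO precursor gates), and G3SEKO ST2+ cells gave 6.12%.

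Members called numbered 2, 4, 6, 20 and 3 by DESeq2 for Zbtb16+ Bcl11b- and Zbtb16+ Bcl11b+ against ST2+ cells, Zbtb16- Icos+ against ST2+ cells and against the Zbtb16+ gates in WT, and the latter in G3SEKO. With cells thinned to 6000 reads, edgeR called 1 for Zbtb16+ Bcl11b+ against ST2+ cells (Uhrf1, higher; 26 members tested; all genes: 2.87%), 1 for Zbtb16- Icos+ against the Zbtb16+ gates in WT (Rrm2; 2.25%) and 1 in G3SEKO (Mki67; 0.248%), and the medians of Zbtb16- Icos+ in WT were 1.07 against ST2+ cells and 1.15 against the Zbtb16+ gates, over the 26. Without the replicate block 0 members were called, and the median difference was 2.03 for Zbtb16- Icos+ against ST2+ cells and -0.21 between genotypes in the precursor gates. Leaving out 1 experiment leaves no residual degrees of freedom, so the medians have no test. Without experiment 1 and 2 in turn they were 2.01 and 1.57 for Zbtb16- Icos+ against ST2+ cells and 4.14 and 1.35 against the Zbtb16+ gates. In alternatives added after seeing the data, the median of Zbtb16- Icos+ against ST2+ cells was 0.27 without the cells in S or G2/M. As these cells were picked by reads of the same genes, leaving them out lowers the levels by construction. The median between genotypes in the precursor gates was 0.07 without the G3SEKO cells of experiment 1. Without the Id2 limit the median of Zbtb16+ Bcl11b+ against ST2+ cells was 0.86 in place of -0.38, that of Zbtb16- Icos+ against the Zbtb16+ gates 1.36 in place of 2.58 in WT (18 unadjusted p under 0.05 in place of 32) and 0.10 in place of 1.73 in G3SEKO, and that between genotypes 3.02 in place of -0.55 in Zbtb16+ Bcl11b- cells, 0.17 in place of -0.63 in the precursor gates and -0.08 in place of 0.96 for the difference of differences, while Zbtb16- Icos+ against ST2+ cells gave 1.78. The cause was not tested. In experiment 1 the 43 G3SEKO cells limit every statement on genotype.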
